A study of Homo sapiens with 12 samples.

Results

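The genes described here are 10 members of BMP and TGF-beta signalling, taken by their gene symbol from 56266 genes with a value in each library. They are the ligand BMP4, the receptors BMPR2, ACVRL1 and TGFBR2, the signal-carrying SMAD1 and SMAD5, the inhibitory SMAD6 and SMAD7, and the target genes ID2 and ID3. RNA-Seq was analysed in 10 libraries, 2 in each of 5 groups, to compare blood formation from H1, an established human embryonic stem cell (hESC) line, with that from H1-GATA2-/-. This knockout line is 1 clone, in which a TALEN pair and a neomycin cassette interrupted both copies of GATA2, a transcription factor of early blood cells. The first group was undifferentiated GATA2-/- hESCs, and WT hESCs were not analysed here. Groups 2 and 3 were hemogenic endothelial cells (HEs), sorted as CD34+CD31+CD43- cells at day 8 of co-culture with mouse OP9 stromal cells that had begun from WT H1 or H1-GATA2-/-. Groups 4 and 5 were hematopoietic progenitor cells (HPCs), sorted as CD34+CD43+ cells at day 9 of the same co-culture, again with WT H1 or H1-GATA2-/- as the starting line. No other agent or allele separated the groups, and stage went together with the day of sorting and the gate. No source used here says whether the 2 libraries of a group came from separate cultures, so the p-values measure only the spread between these libraries, which may be technical.

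The values are in TPM, a unit that scales reads for transcript length and brings each library to a common total, so levels of different genes can be compared but how many reads lie behind them is unknown. Between 16004 and 17335 genes per library reached a TPM of at least 1, and mitochondrial genes took 6.29% to 9.61% of the TPM in 8 libraries but 15.1% and 14.8% in the GATA2-/- HPCs. The markers went with the stage labels. The summed TPM of 8 pluripotency markers was 4631 to 5242 in hESCs and 144 to 300.2 elsewhere, that of 10 endothelial markers was 3861 to 4698 in HEs against 993 to 1295 in HPCs, and that of 10 pan-hematopoietic markers was 126 to 329 in HEs against 1536 to 2061 in HPCs. PTPRC (CD45) was listed at 0 in all 4 HE libraries. GATA2 itself does not check the genotype labels, since the interrupted gene still gives RNA that is counted.

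BMPs and TGF-betas are secreted proteins that bring together a type II receptor, such as BMPR2 or TGFBR2, and a type I receptor, such as ACVRL1 (ALK1). The type I receptor then phosphorylates a receptor-regulated SMAD, SMAD1 or SMAD5 in the BMP branch, which enters the nucleus with SMAD4 and switches on genes such as the ID genes, whose proteins block basic helix-loop-helix factors. SMAD6 and SMAD7 are targets of the same pathway and inhibit it in turn. BMP4 is known for its role in making mesoderm and blood from pluripotent cells, and ACVRL1 for its role in vessels, where it carries signals of circulating BMPs.

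Promoter sequences are shown for ID3 and ID2, the target genes whose levels parted between HEs and HPCs, for the inhibitor SMAD6, and for BMPR2. Each is the 250 bases before the RefSeq transcription start on the gene's strand, 5′ to 3′, in GRCh38.p14. They lie at chr1:23559502-23559751 on the minus strand for ID3, and on the plus strand at chr2:8681806-8682055 for ID2, chr15:66701986-66702235 for SMAD6 and chr2:202376077-202376326 for BMPR2. Capitals mark the SMAD box GTCT on either strand (so also AGAC) and the GC-rich SMAD element GGCGCC.
ID3: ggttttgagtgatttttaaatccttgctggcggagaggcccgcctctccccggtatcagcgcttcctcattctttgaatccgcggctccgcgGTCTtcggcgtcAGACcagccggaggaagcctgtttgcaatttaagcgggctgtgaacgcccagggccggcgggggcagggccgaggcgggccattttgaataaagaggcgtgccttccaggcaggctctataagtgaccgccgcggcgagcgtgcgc
ID2: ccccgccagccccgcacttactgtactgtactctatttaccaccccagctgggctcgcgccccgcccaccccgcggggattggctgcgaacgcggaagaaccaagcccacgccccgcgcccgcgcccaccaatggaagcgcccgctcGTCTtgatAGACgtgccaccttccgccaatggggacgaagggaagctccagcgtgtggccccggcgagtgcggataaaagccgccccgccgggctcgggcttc
SMAD6: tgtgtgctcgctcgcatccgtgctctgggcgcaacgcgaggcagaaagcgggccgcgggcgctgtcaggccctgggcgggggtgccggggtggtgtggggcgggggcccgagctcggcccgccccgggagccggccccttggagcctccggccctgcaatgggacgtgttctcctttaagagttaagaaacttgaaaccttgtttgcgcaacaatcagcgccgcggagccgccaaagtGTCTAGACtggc
BMPR2: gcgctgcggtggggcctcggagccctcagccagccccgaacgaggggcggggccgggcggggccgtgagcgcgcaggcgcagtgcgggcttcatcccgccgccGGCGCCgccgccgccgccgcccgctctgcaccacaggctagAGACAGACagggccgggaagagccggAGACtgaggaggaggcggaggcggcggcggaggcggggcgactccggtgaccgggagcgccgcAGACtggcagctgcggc

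ID3, ID2 and SMAD6 each held 1 pair of SMAD boxes facing each other, with 8, 4 and 0 bases between GTCT and AGAC. In SMAD6 the boxes abut as GTCTAGAC, 12 bases before the start. The pair was noticed in these sequences and then searched for: GTCT followed by AGAC with at most 8 bases between occurs in 1.97% of 35116 promoters of the same length, and GTCTAGAC in 0.182%. The limit of 8 bases equals the gap in ID3, where a pair was noticed, so ID3, ID2 and SMAD6 were bound to count. Among the 9 members with a promoter entry (all but ACVRL1), they were the 3 with such a pair, and no enrichment is read from this. GTCT, in a pair or not, was in a promoter of each of the 9, but also in 77.5% of all promoters. GGCGCC was in a promoter of 3 members, BMPR2, BMP4 and SMAD1, against 16.4% of all promoters. The shares count single promoters, while a member counts with any of its promoters (5 for SMAD1, 3 for BMP4), so the units differ. The BMP response element, spelled GGCGNCNNNNNGTCT and holding a GTCT itself, was in no member's window and in 0.256% of all. The GATA motif AGATAA was in 1 of the 5 SMAD1 promoters (9.17% of all promoters), and TGATAA was in no member's (6.66% of all). All letters were searched on both strands, and a match is a stretch of letters and not a shown binding site.

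Between HEs and HPCs, 6 of the 10 genes fell and none rose over both genotypes (limma on log2(TPM + 1), Benjamini-Hochberg adjusted p under 0.05 over the 21543 genes tested). Those were ID3, BMP4, ACVRL1, TGFBR2, BMPR2 and SMAD6. Of all genes tested, 20.4% passed in this comparison, and 11.9% of all genes tested passed downwards. The median log2 fold change was −1.20 over the 10 genes and 0.01 over all genes. SMAD1, SMAD5, SMAD7 and ID2 did not pass. Within WT cells 5 of the 10 fell, against 9.91% of all genes past the threshold (6.59% downwards), and within GATA2-/- cells 4 fell, against 12.7% (7.24% downwards). With a spread taken from the 4 libraries of a single genotype alone, none of the 10, and no gene at all, passed in either genotype by limma, while 9 of the 10 in WT and 5 in GATA2-/- had an unadjusted p under 0.05 (4423 and 5040 of all genes). From GATA2-/- hESCs to GATA2-/- HEs, 7 of the 10 rose and none fell, against 30% of all genes past the threshold, 13.9% upwards. All 10 members passed the filter on low values, and each had a TPM of at least 1 in 8 or more libraries.

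**Figure D1:**
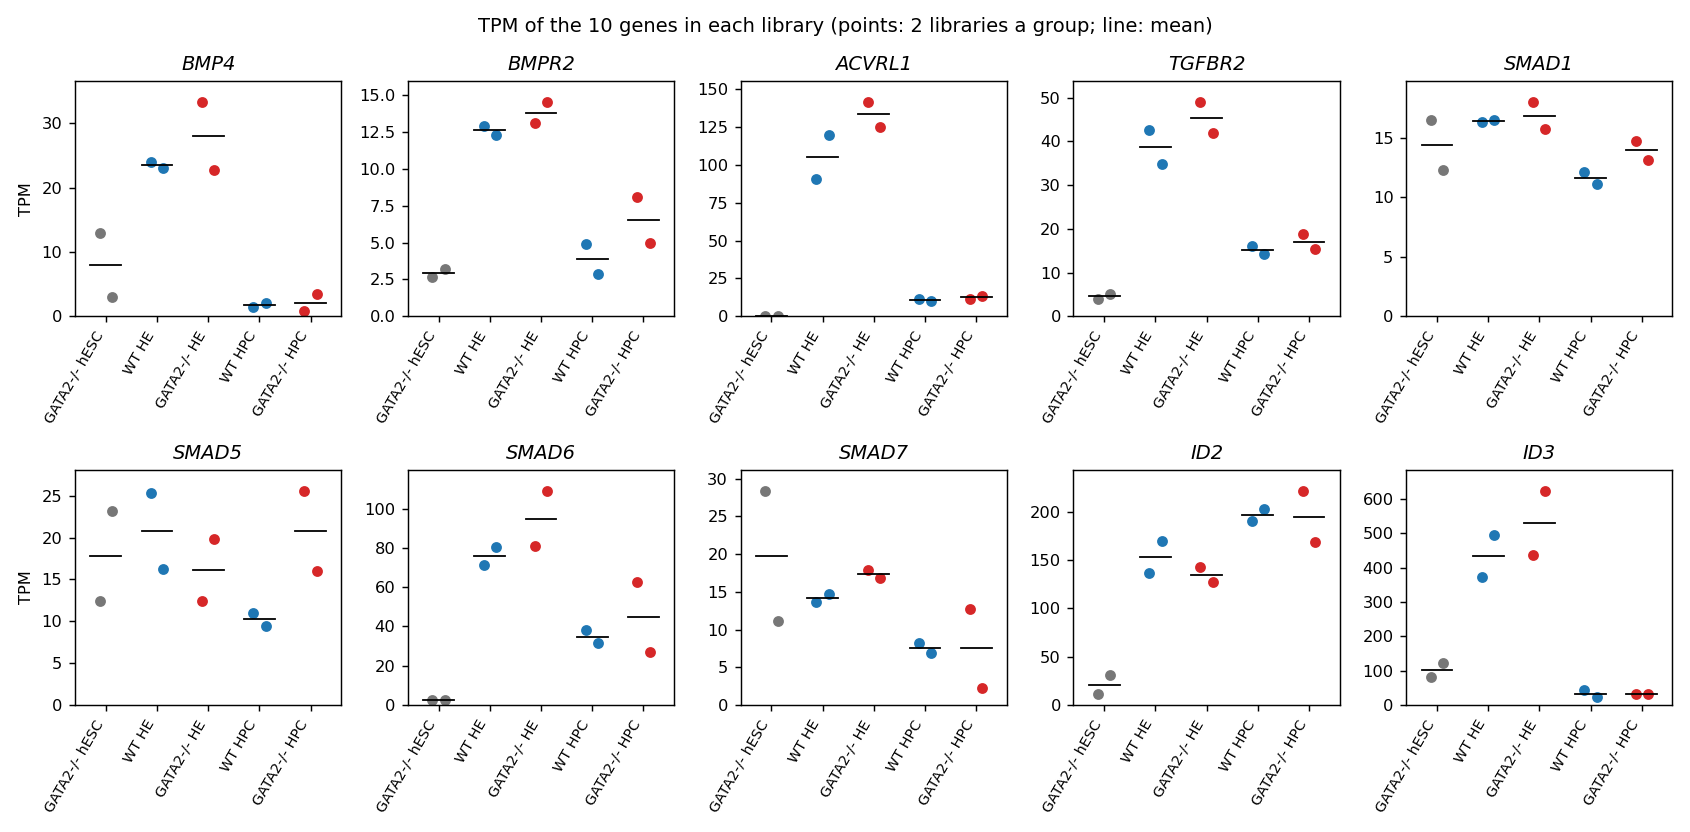
TPM (y axis, linear, from 0) of the 10 genes in each of the 5 groups (x axis), with 1 point per library and a line at the mean of 2. BMP4, BMPR2, ACVRL1, TGFBR2, SMAD6 and ID3 peak in HEs, ID2 is high in HEs and HPCs, and SMAD1 and SMAD5 stay between 9.44 and 25.6 throughout.

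BMP4, the ligand (ENSG00000125378, minus strand, chromosome 14 from 54416454 to 54425479 in GRCh37, the build of all gene positions here), was highest in HEs. Its TPM was 12.98 and 3.02 in GATA2-/- hESCs, 24.0 and 23.0 in WT HEs, 33.2 and 22.7 in GATA2-/- HEs, 1.40 and 2.04 in WT HPCs, and 0.84 and 3.42 in GATA2-/- HPCs. All 4 HE libraries lay above every hESC and HPC library, while the hESC and HPC groups overlapped. BMP4 was 9.51-fold lower in HPCs than in HEs on the log2(TPM + 1) scale (log2 fold change −3.25, SE 0.42, limma adjusted p = 0.000799). The log2 fold change was −3.18 in WT cells and −3.32 in GATA2-/- cells, and it passed the threshold in each. The WT value stayed between −3.35 and −3.01 without any 1 of the 4 WT libraries but then had an adjusted p of 0.0619 to 0.0783. The GATA2-/- value also lost its call without GATA2-/- HE replicate 1 (−3.05) or without GATA2-/- HPC replicate 1 (−2.69). From hESCs to HEs the log2 fold change was 1.92 (SE 0.60, adjusted p = 0.0394). The hESC replicates were 12.98 and 3.02, and without the second the log2 fold change was 1.03 (limma adjusted p = 0.259). The call was lost as well without any 1 of the WT HE, GATA2-/- HE or WT HPC libraries (1.66 to 2.19, adjusted p = 0.059 to 0.188).

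The 3 receptors peaked in HEs as BMP4 did, and among the 3 ACVRL1 was far ahead in the size of the change. ACVRL1, the type I receptor known as ALK1 (ENSG00000139567, chromosome 12 from 52300692 to 52317145 on the plus strand), was nearly absent from hESCs, at a TPM of 0.05 and 0.26. It reached 90.9 and 119 in WT HEs and 141 and 125 in GATA2-/- HEs, then stood at 11.4 and 10.2 in WT HPCs and at 11.5 and 13.6 in GATA2-/- HPCs. No hESC, HE or HPC library overlapped one of another stage. From hESCs to HEs the log2 fold change was 6.86 in GATA2-/- cells (SE 0.23, limma adjusted p = 5.43e-07). From HEs to HPCs it was −3.24 over both genotypes (SE 0.16, adjusted p = 1.32e-05), a 9.43-fold fall. HPCs still lay above hESCs by 3.55 on the log2 scale (SE 0.23, adjusted p = 1.43e-05).

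TGFBR2, the type II receptor for TGF-betas (ENSG00000163513, chromosome 3 from 30648093 to 30735634 on the plus strand), had a TPM of 4.0 and 5.11 in hESCs, 42.5 and 34.9 in WT HEs and 48.9 and 41.9 in GATA2-/- HEs. In HPCs it was 16.2 and 14.3 in WT and 18.8 and 15.3 in GATA2-/-. The stages again did not overlap, with HPCs in the middle. TGFBR2 rose by 3.07 on the log2 scale from hESCs to HEs (SE 0.22, limma adjusted p = 2.53e-05) and was 2.50-fold lower in HPCs than in HEs (log2 fold change −1.32, SE 0.16, adjusted p = 0.000505).

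BMPR2, the type II receptor for BMPs (ENSG00000204217, chromosome 2 from 203241050 to 203432474 on the plus strand), was lower throughout. Its TPM was 2.65 and 3.24 in hESCs, 12.9 and 12.3 in WT HEs, 13.1 and 14.5 in GATA2-/- HEs, 4.88 and 2.86 in WT HPCs and 8.11 and 4.99 in GATA2-/- HPCs. Every HE library lay above every HPC library, and 1 WT HPC library lay within the range of hESCs. BMPR2 rose by 1.91 on the log2 scale from hESCs to HEs (SE 0.33, limma adjusted p = 0.00264) and fell by 1.26 from HEs to HPCs (SE 0.23, adjusted p = 0.00526). In GATA2-/- cells alone the fall did not pass, at −1.001 (adjusted p = 0.0864), whereas in WT cells it was −1.51 (adjusted p = 0.0215). The test of that difference gave 0.51 (SE 0.47, adjusted p = 0.928). The WT calls rested on few libraries: BMPR2 lost its call without WT HE replicate 1, WT HE replicate 2 or WT HPC replicate 2 (adjusted p = 0.108 to 0.117), and TGFBR2 without WT HE replicate 1 (adjusted p = 0.0696) or WT HPC replicate 2 (adjusted p = 0.0563).

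The make-up of the receptors changed as well as their level. This grouping was chosen after the values were seen and has no test. Among the 4 type I receptors that bind BMPs (ACVRL1, ACVR1, BMPR1A and BMPR1B), ACVRL1 took 78.5% to 81.9% of the summed TPM in the 4 HE libraries, 23.8% to 31.2% in the 4 HPC libraries and 0.0726% and 0.517% in hESCs. BMPR1A (ALK3), the common BMP receptor, took 82.0% and 79.1% in hESCs, and ACVR1 (ALK2) took 51.7% to 57.1% in HPCs. Each stage thus had another leading receptor, in both genotypes where both were measured. Among 4 type II receptors (TGFBR2, BMPR2, ACVR2A and ACVR2B), TGFBR2 took 43.4% to 65.5% of the summed TPM in the 8 HE and HPC libraries, and BMPR2 took 9.73% to 20.9% in all 10. AMHR2, a type II receptor left out of that sum, had a TPM of 18.6 and 25.1 in WT HPCs, above TGFBR2 there, and of 15.2 and 15.7 in GATA2-/- HPCs. ACVR2B, an activin receptor, had the largest share of the 4 in hESCs, with 58.5% and 46.1%.

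SMAD1 and SMAD5, which carry the signal of BMP receptors, moved little beside the ligand and receptors. SMAD1 (ENSG00000170365, chromosome 4 from 146402346 to 146480328 on the plus strand) had a TPM of 16.5 and 12.3 in hESCs, 16.3 and 16.5 in WT HEs, 18.0 and 15.7 in GATA2-/- HEs, 12.1 and 11.1 in WT HPCs and 14.8 and 13.2 in GATA2-/- HPCs. All HPC libraries were below all HE libraries, by a small margin. The log2 fold change from HEs to HPCs was −0.36 with a 95% interval from −0.73 to 0.00 (limma adjusted p = 0.155), so a fall of more than 0.73 lies outside the interval. From hESCs to HEs it was 0.23 (95% interval −0.29 to 0.74).

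SMAD5 (ENSG00000113658, chromosome 5 from 135468534 to 135524435 on the plus strand) had replicates far apart in most groups. Its TPM was 12.4 and 23.2 in hESCs, 25.4 and 16.2 in WT HEs, 12.4 and 19.8 in GATA2-/- HEs, 11 and 9.44 in WT HPCs and 25.6 and 16.0 in GATA2-/- HPCs. Every stage overlapped the next, and only the WT HPCs stood below the rest. The log2 fold change from HEs to HPCs was −0.29 over both genotypes (95% interval −0.91 to 0.33), −0.93 in WT cells (limma adjusted p = 0.191) and 0.35 in GATA2-/- cells (adjusted p = 0.625). The difference between those was 1.28 (SE 0.54), with an unadjusted p of 0.0443 and an adjusted p of 0.831 from limma.

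SMAD6 and SMAD7, the inhibitors, had different courses. SMAD6, which mainly blocks the BMP branch (ENSG00000137834, chromosome 15 from 66994574 to 67075187 on the plus strand), had a TPM of 2.72 and 2.78 in hESCs and of 71.6 and 80.5 in WT HEs. It was 81.0 and 109 in GATA2-/- HEs, 37.98 and 31.6 in WT HPCs, and 62.8 and 27.0 in GATA2-/- HPCs. The stages did not overlap. SMAD6 rose by 4.66 on the log2 scale from hESCs to HEs (SE 0.35, limma adjusted p = 2.72e-05), and HPCs lay 3.49 above hESCs (SE 0.35, adjusted p = 0.000131). From HEs to HPCs it was −1.14 over both genotypes (SE 0.25, adjusted p = 0.011), a 2.20-fold fall. Without GATA2-/- HE replicate 2 this was −1.03 with an adjusted p of 0.0504, and in each genotype alone it did not pass (−1.11, adjusted p = 0.0859, in WT and −1.17, adjusted p = 0.061, in GATA2-/-).

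SMAD7, which blocks both branches (ENSG00000101665, chromosome 18 from 46446223 to 46477335 on the minus strand), had a TPM of 28.4 and 11.1 in hESCs, 13.6 and 14.7 in WT HEs, 18.0 and 16.9 in GATA2-/- HEs, 8.23 and 6.90 in WT HPCs and 12.8 and 2.26 in GATA2-/- HPCs. HPC libraries lay below HE libraries, but the GATA2-/- HPC replicates were far apart. The log2 fold change from HEs to HPCs was −1.14 (SE 0.44, limma adjusted p = 0.106), and it was −1.66 (adjusted p = 0.0116) without GATA2-/- HPC replicate 1. From hESCs to HEs it was −0.04 (95% interval −1.45 to 1.38). SMAD6 made up 8.75% and 19.97% of the summed TPM of these inhibitors in hESCs and 81.9% to 92.3% in the 8 HE and HPC libraries, a comparison chosen after the values were seen and given with no test.

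ID3 and ID2, the target genes, parted at the HPC stage. ID3 (ENSG00000117318, chromosome 1 from 23884417 to 23885992 on the minus strand) had the highest TPM of the 10 genes in HEs. It was 82.4 and 123 in hESCs, 373 and 496 in WT HEs, 436 and 624 in GATA2-/- HEs, 43.9 and 22.0 in WT HPCs and 32.4 and 30.6 in GATA2-/- HPCs. HEs lay above hESCs and hESCs above HPCs, with no overlap. Its log2 fold change was 2.36 from hESCs to HEs (SE 0.33, limma adjusted p = 0.0009) and −3.88 from HEs to HPCs (SE 0.24, adjusted p = 2.47e-05), a 14.7-fold fall. HPCs stood below hESCs by −1.65 on the log2 scale (SE 0.33, adjusted p = 0.00591), a call that was lost without the second hESC library (−1.36, adjusted p = 0.076).

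ID2 (ENSG00000115738, chromosome 2 from 8818975 to 8824591 on the plus strand) had a TPM of 11.1 and 30.6 in hESCs, 137 and 170 in WT HEs, 143 and 127 in GATA2-/- HEs, 190 and 203 in WT HPCs and 222 and 169 in GATA2-/- HPCs. HEs and HPCs were far above hESCs and overlapped each other by 1 library on each side. ID2 rose by 2.80 on the log2 scale from hESCs to HEs (SE 0.37, limma adjusted p = 0.000676) and was 3.31 higher in HPCs than in hESCs (SE 0.37, adjusted p = 0.000266). From HEs to HPCs the log2 fold change was 0.44 with a 95% interval from −0.16 to 1.04 (adjusted p = 0.296), so a fall of the size of ID3's lies outside the interval.

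The TPM of ID3 over that of ID2 was 7.41 and 4.03 in hESCs, 2.73 to 4.91 in HEs and 0.108 to 0.231 in HPCs. Of the summed TPM of ID1 to ID4, ID3 took 46.5% to 54.7% in HEs and 7.22% to 12.97% in HPCs, while ID2 took 11.03% to 20.1% and then 56.3% to 68.1%. ID1, the best known BMP target and no member of the set, took 25.0% to 38.1% in HEs and 21.5% to 30.8% in HPCs. Both the ratio and the shares were chosen after the values were seen and have no test.

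**Figure D2:**
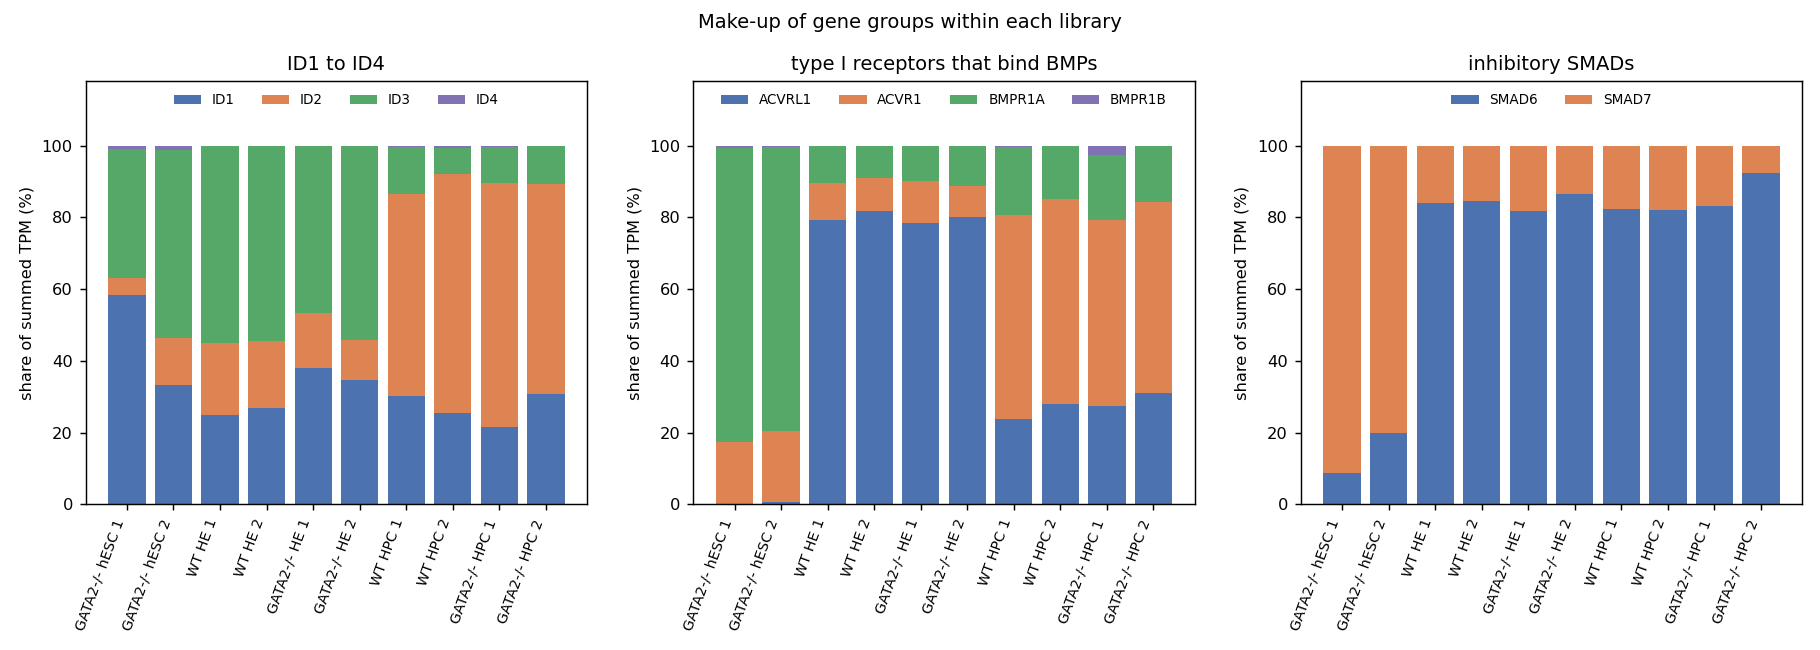
Share of the summed TPM (y axis, percent) that each gene took within 3 gene groups, with 1 bar per library (x axis). ID2 takes 56.3% to 68.1% of the ID genes in HPCs, ACVRL1 takes 78.5% to 81.9% of the type I receptors that bind BMPs in HEs, and SMAD6 replaces SMAD7 as the larger share of the inhibitory SMADs after the hESC stage.

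The rest of the pathway was described with lists of 89 genes, of which 72 had enough TPM to be tested. From HEs to HPCs, 22 of the 72 fell and 10 rose over both genotypes (limma, adjusted p under 0.05), and the median log2 fold change was −0.14. In this comparison 20.4% of all genes tested passed, 11.9% downwards. These shares stand beside each list count of this step given below. Among receptors and co-receptors, 4 of 13 fell and 2 rose. ENG (endoglin), a co-receptor that works with ACVRL1 in vessels, went from a mean TPM of 155 in HEs to 32.8 in HPCs (log2 fold change −2.22, adjusted p = 4.4e-05), and TGFBR3 (betaglycan), which presents TGF-beta to TGFBR2, from 25.9 to 2.35 (−3.10, adjusted p = 0.000196). AMHR2, the receptor for anti-Müllerian hormone, rose from 2.19 to 18.7 (2.68, adjusted p = 7.3e-05).

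Among BMP ligands, 3 of 7 fell and 2 rose. BMP10 and BMP6 fell with BMP4, by 2.15 and 1.85 on the log2 scale (limma adjusted p = 0.00144 and 0.00109), and GDF3 rose by 2.40 (adjusted p = 0.00183). Of the 6 TGF-beta, activin and nodal ligands 1 passed: GDF11 rose by 0.72 (adjusted p = 0.0348), but the call was lost on leaving out any 1 of 7 of the 8 HE and HPC libraries, GATA2-/- HE replicate 1 being the exception (log2 fold change 0.63 to 0.79, adjusted p = 0.0523 to 0.107).

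Of 12 target genes 8 fell, none rose, and their median log2 fold change was −1.21. HEY1, a Notch and BMP target of endothelium, fell by 3.23, CTGF by 2.49 and PMEPA1, a feedback inhibitor of TGF-beta signalling, by 1.85 (limma adjusted p = 4.66e-05, 0.000918 and 0.000692). The PMEPA1 value averages a larger fall in WT (−2.63) and a smaller one in GATA2-/- cells. The difference between those was 1.57 (SE 0.47, limma unadjusted p = 0.00893, adjusted p = 0.68). ID1 fell by 1.71 (SE 0.20, adjusted p = 0.000446), less than ID3. The list of 13 extracellular antagonists also holds LTBP1 and LTBP3, which tether latent TGF-beta to matrix and are not antagonists as such. In that list 2 fell, FSTL1 (−2.92) and the BMP antagonist NOG (−1.98) (limma adjusted p = 4.9e-05 and 0.00132). The 2 that rose were LTBP1 (1.67) and LTBP3 (1.52) (adjusted p = 8.12e-05 and 0.0065).

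Of 17 intracellular regulators 5 fell and 3 rose. FKBP1A, which binds type I receptors, fell by 1.38, and TGIF1, a repressor of SMAD targets, by 1.36, while the deubiquitinase USP15 rose by 1.20 (limma adjusted p = 4.9e-05, 0.000668 and 0.00544). SMAD2, SMAD3, SMAD4 and SMAD9 did not pass (0 of 4, smallest adjusted p = 0.105, for SMAD9).

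**Figure D3:**
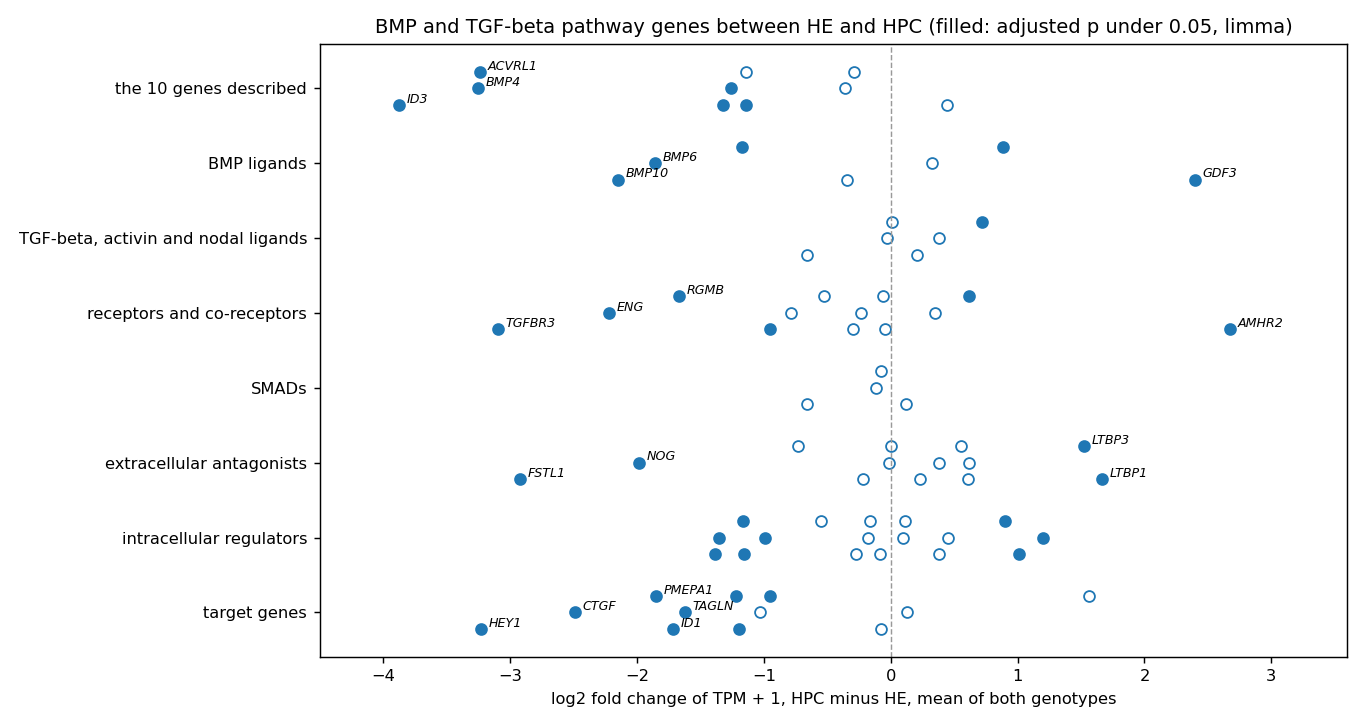
log2 fold change of TPM + 1 from HEs to HPCs, mean of both genotypes (x axis), for the 10 genes described and the tested genes of 7 lists of other pathway genes (y axis), filled where the adjusted p was under 0.05. ID3, BMP4 and ACVRL1 lie furthest left among the 10 with HEY1 and TGFBR3 in the other lists. In the list of other SMADs (SMAD2, SMAD3, SMAD4 and SMAD9) none is filled, and SMAD9 lies at −0.66.

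From hESCs to HEs, 17 of the 72 rose and 19 fell, against 30% of all genes past the threshold, 13.9% upwards. NODAL, a ligand known for keeping hESCs pluripotent, had a mean TPM of 26.6 in hESCs and 0.205 in GATA2-/- HEs (log2 fold change −4.25, limma adjusted p = 0.000727), and its co-receptor TDGF1 and inhibitors LEFTY1 and LEFTY2 fell by 8.57, 5.10 and 4.14 (limma adjusted p = 5.72e-06, 0.000453 and 0.000103). ACVR1B, a receptor for NODAL and activin, rose by 1.62 (adjusted p = 0.00295), and the log2 fold change of SMAD2, which acts below it, was 0.35 (adjusted p = 0.249). Over the same step TGFB1 rose by 5.34 (mean TPM 6.25 to 295, limma adjusted p = 2.75e-06), ENG by 5.16 and HEY1 by 5.56 (adjusted p = 2.26e-06 and 1.15e-05). From HEs to HPCs the log2 fold change of TGFB1 was 0.38 (adjusted p = 0.175). GATA2-/- HPCs were compared with GATA2-/- hESCs too. In that comparison 5 of the 10 members passed, 4 upwards (ACVRL1, SMAD6, ID2 and TGFBR2) and ID3 downwards, against 30.6% of all genes, and 30 of the 72 other pathway genes passed, 12 upwards and 18 downwards. The comparisons with hESCs share the hESC libraries.

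Markers of other cells moved with the same step. All 10 endothelial markers fell from HEs to HPCs, and 8 of 10 pan-hematopoietic and 10 of 12 erythroid markers rose, against 20.4% of all genes past the threshold. The summed TPM of 12 stromal and mesenchymal markers was 1075 to 1280 in HEs and 165 to 336 in HPCs (5 fell and 2 rose), with LUM at 0 in 3 of 4 HPC libraries, and it was 766 and 1269 in hESCs, where COL3A1, DCN and LUM were at 0. COL1A1 and TAGLN of that list are also among the target genes. In bulk RNA a smaller number of cells of a type and less RNA per cell cannot be told apart, and the part of these cells in the changes of the 10 genes was not tested. The deposited column headers of replicate 2 carry an extra mark in the 4 HE and HPC groups, whose meaning is not given in the sources used here. Within each replicate number the difference between HEs and HPCs kept its sign for 9 of the 10 genes in both genotypes, SMAD5 being the exception. That adds no support, since the HE and HPC libraries of a genotype did not overlap for those 9, which fixes the sign. The difference within a replicate number was −3.06 and −4.43 in WT and −3.71 and −4.30 in GATA2-/- for ID3. For ACVRL1 it was −2.89 and −3.43 in WT and −3.51 and −3.12 in GATA2-/-.

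No difference between GATA2-/- and WT cells was detected in any of the 10 genes. In HEs 0 of 10 passed, with 0.0186% of all genes past the threshold. In HPCs 0 of 10 passed, with 0.0603% of all, and over both stages 0 of 10, with 0.0232% (limma). By an unadjusted p under 0.05, 0 of the 10 passed in HEs (4.85% of all genes), 1 in HPCs (8.94%) and 0 over both stages (8.04%). With so few genes called anywhere, a count of 0 says little about these 10, and the intervals say more. The log2 fold changes between GATA2-/- and WT ranged from −0.35 (SMAD5) to 0.35 (ACVRL1) in HEs and from −0.35 (SMAD7) to 0.92 (SMAD5) in HPCs.

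**Figure D4:**
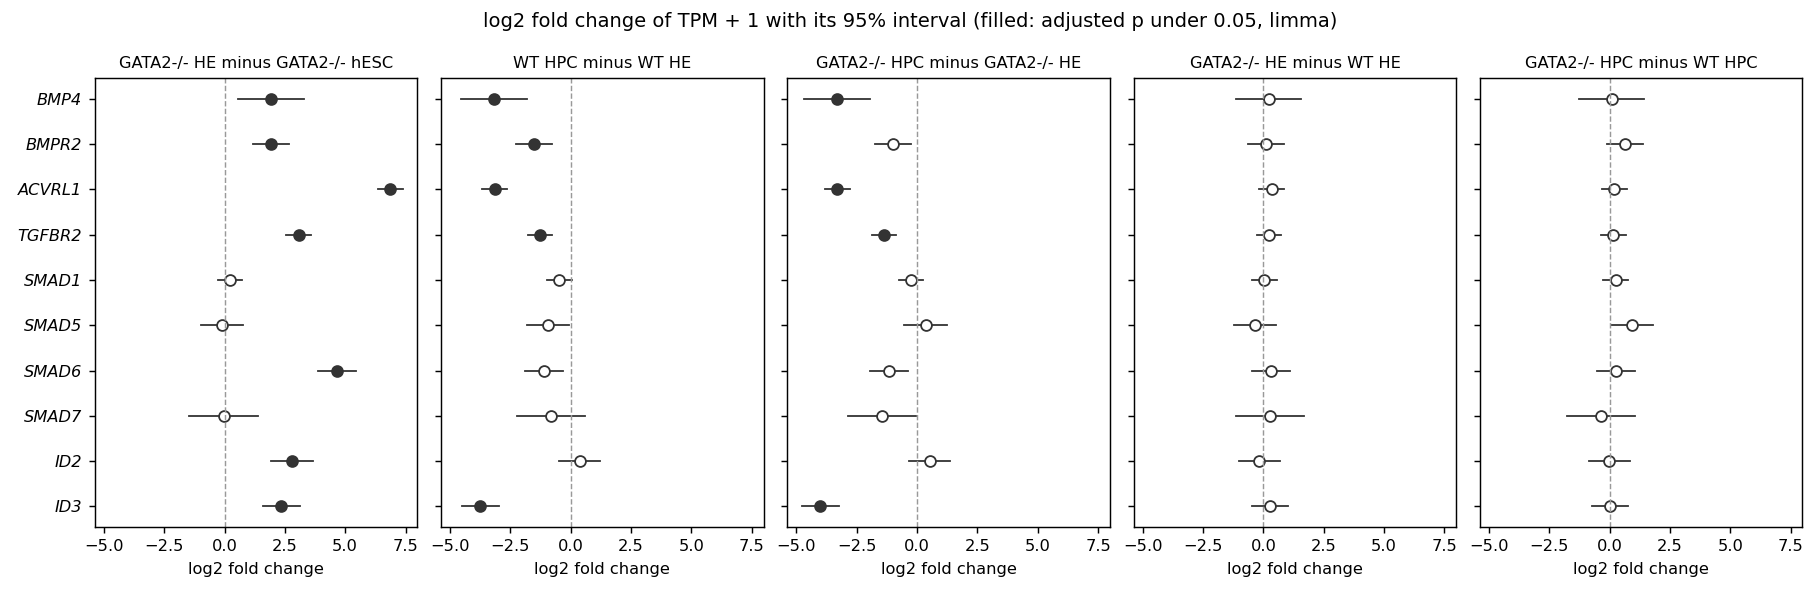
log2 fold change of TPM + 1 (x axis, points) with its 95% interval (lines) for the 10 genes (y axis) in 5 comparisons, filled where the adjusted p was under 0.05. In both comparisons of HPCs with HEs the 3 longest shifts to the left are those of ID3, BMP4 and ACVRL1, and no gene is filled in the 2 comparisons of GATA2-/- with WT.

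The narrowest of these intervals were those of the receptors and SMAD1. Over both stages, the 95% interval of the log2 fold change was −0.09 to 0.64 for ACVRL1, −0.17 to 0.55 for TGFBR2, −0.22 to 0.50 for SMAD1 and −0.15 to 0.91 for BMPR2. A loss of 1 on the log2 scale thus lay outside the interval for each, as it did for SMAD6 (−0.28 to 0.83), SMAD5 (−0.33 to 0.90), ID3 (−0.39 to 0.68), ID2 (−0.70 to 0.50) and BMP4 (−0.81 to 1.11). For SMAD7 the interval was −1.03 to 0.97, which holds such a loss. Within a single stage the intervals were wider, and more of them held it. In HEs they were those of BMP4 (−1.143 to 1.579), SMAD5 (−1.225 to 0.522), ID2 (−1.03 to 0.676) and SMAD7 (−1.135 to 1.697). In HPCs they were those of BMP4 (−1.283 to 1.439) and SMAD7 (−1.765 to 1.066). A gain of 1 lay within the interval of BMP4 alone over both stages. In HEs it lay within those of BMP4, SMAD7, SMAD6 (−0.483 to 1.092) and ID3 (−0.483 to 1.035). In HPCs it lay within those of BMP4, SMAD7, BMPR2 (−0.116 to 1.382), SMAD5 (0.051 to 1.798) and SMAD6 (−0.544 to 1.032). In HEs the GATA2-/- and WT libraries did not overlap for 4 of the 10 (all 4 higher in GATA2-/-: BMPR2, ACVRL1, SMAD6 and SMAD7), against 30.3% of all genes, and in HPCs for 4 (BMPR2, ACVRL1, SMAD1 and SMAD5, all higher), against 32.6%. Over both stages no member was free of overlap, against 1.79% of all genes, but for 8 of the 10 this was fixed in advance. Their HE libraries all lay above their HPC libraries, so genotype groups that pool the stages had to overlap. Most blood markers had lower values in GATA2-/- than in WT HEs, but no marker passed after adjustment (limma). The summed TPM of 12 erythroid markers was 194 and 120 in WT and 49.4 and 34.4 in GATA2-/-, with a median log2 fold change of −1.50. Of these, 8 were without overlap, all lower, and 7 had an unadjusted p under 0.05 (4.85% of all genes). In HPCs their median was 0.24. Of 10 pan-hematopoietic markers in HEs, 5 were lower without overlap (summed TPM 329 and 259.7 in WT, 215 and 126 in GATA2-/-, median −0.605), and of 10 endothelial markers 4 were higher without overlap (3861 and 4182 against 4698 and 4277, median 0.16). Of 12 stromal and mesenchymal markers in HEs, 5 were lower and 1 higher without overlap (median −0.369). The part of all these markers in the values of the 10 genes was not tested.

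SMAD5 in HPCs was the nearest to a genotype difference. The GATA2-/- libraries (25.6 and 16.0) both lay above the WT libraries (11 and 9.44), with a log2 fold change of 0.92 (SE 0.38, unadjusted p = 0.0404, adjusted p = 0.523 from limma). BMPR2 was higher in GATA2-/- HPCs by 0.63 in each replicate number (SE 0.33, adjusted p = 0.626). No member passed the test of whether the genotype difference itself differed between stages (0 of 10, 0% of all genes, limma; 1 of 10 at an unadjusted p under 0.05, against 5.95% of all genes). The fall of ID3, BMP4 and ACVRL1 from HEs to HPCs was thus seen in each genotype, with differences between genotypes of −0.26 (SE 0.47), −0.14 (SE 0.85) and −0.16 (SE 0.32) on the log2 scale.

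Of the other pathway genes, 0 of 72 passed a genotype comparison (limma). At an unadjusted p under 0.05 there were 7 in HEs (4.85% of all genes), 5 in HPCs (8.94%) and 8 over both stages (8.04%). ID1 had a TPM of 170 and 244 in WT HEs and of 357 and 399 in GATA2-/- HEs, and of 103 and 77.6 in WT HPCs and 69.9 and 89.0 in GATA2-/- HPCs. Its groups did not overlap in HEs (log2 fold change 0.89, SE 0.28, unadjusted p = 0.0127, adjusted p = 0.814) and overlapped in HPCs (−0.17, adjusted p = 0.9). PMEPA1 was higher in GATA2-/- than in WT HPCs by 1.80 (adjusted p = 0.178) and TGIF1 by 1.08 (adjusted p = 0.238), neither past the threshold.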

How the data were processed

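The authors trimmed adapters with Trimmomatic, used Bowtie to map short single-end MiSeq reads, and deposited TPM per gene in 1 file per library. The submitters' notes name Bowtie, RSEM, hg19 and mm10 without roles, and the program that gave TPM is not given in the sources used here. Depth is unknown, so no counting error can be given. From the TPM, log2(TPM + 1) was fitted with limma 3.58.1 in R 4.3.3 (eBayes with trend) over all 10 libraries in 5 groups, keeping the 21543 genes whose TPM reached 1 in 2 or more libraries. A fold change on this scale understates changes of low genes. The code was run on simulated data with shifts larger than the genotype differences of the 10 genes. That run says nothing of the power to find differences as small as theirs. The members and lists were chosen with earlier results of these data known. Each list gave up to 3 genes with the largest change past the threshold, or 2 with the smallest p. Positions come from GENCODE v44 lifted to GRCh37, promoters from RefSeq. The 7 alternatives and 10 left-out libraries are described below. The study's Cuffdiff test needs alignments and was not repeated.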

Additional observations from a re-analysis of the deposited data

How the results depend on the processing

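With 2 libraries per group the spread is known only roughly, and TPM sets no limit from depth. Among the counts of genes past the threshold, 170 of 189 values under the 7 alternatives and 221 of 270 with 1 library left out stayed within 1.5 times the reported count, and 1181 of 1253 and 1647 of 1790 fold changes of named genes kept their direction and their side of the threshold. With only the libraries of a comparison, members, other pathway genes and all genes past the threshold came to 0 in WT and 0 in GATA2-/- cells from HEs to HPCs, all genes came to 0 in each of the 3 genotype comparisons and to 4386 for HPCs against hESCs, where fewer libraries enter the fit. All genes past the threshold in HEs, HPCs and both stages between genotypes were 12, 20 and 19 with eBayes without trend; 13 in HEs and 3 over both stages with no filter; and 6 in HPCs with a pseudocount of 0.1. Groups share replicate numbers, but nothing says that a number marks a culture, and the replicate differences of pairs of groups correlated at −0.0141 to 0.123. With the replicate number as a block the genotype counts were 2, 3 and 3, member counts did not change except from 7 to 6 for HEs against hESCs (BMP4), and LTBP3 lost its WT call. BMP4 in HEs against hESCs was also not past the threshold with a pseudocount of 0.1 (2.11), no filter, eBayes without trend or only its own libraries, and without any 1 of 7 libraries (1.03 to 2.19; adjusted p = 0.059 to 0.259). Directions turned for values near 0: under quantile normalization BMP4 (−0.052), ID2 (0.027) and ID3 (−0.043) in HPCs between genotypes, and with mitochondrial genes left out ID2 in HPCs (0.070), SMAD7 over both stages (0.00), SMAD1 in HPCs against hESCs (0.063) and the differences between stages of TGFBR2 (0.012) and SMAD6 (0.034). That rescaling moved the median of all genes from 0.05 to 0.13 in HPCs between genotypes. The cause of these changes was not tested.

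With 1 library left out, members past the threshold ranged from 2 to 6 in WT from HEs to HPCs, other pathway genes from 9 to 18 in WT and 10 to 22 in GATA2-/-, and all genes from 849 to 2073 and from 1257 to 2685. All genes ranged from 4075 to 6478 for HEs and 4180 to 6550 for HPCs against hESCs, from 0 to 1, 0 to 14 and 0 to 10 between genotypes in HEs, HPCs and both stages, and from 0 to 5 for the difference between stages. Some log2 fold changes crossed 0. Between genotypes in HEs they were BMP4 (−0.049 to 0.48) and SMAD1 (−0.059 to 0.12). In HPCs they were BMP4 (−0.55 to 0.71), SMAD6 (−0.35 to 0.84), SMAD7 (−1.39 to 0.69), ID1 (−0.37 to 0.024), ID2 (−0.22 to 0.17) and ID3 (−0.47 to 0.50). Over both stages they were BMP4 (−0.17 to 0.46), SMAD6 (−0.022 to 0.57), SMAD7 (−0.55 to 0.49) and ID3 (−0.095 to 0.39). Against hESCs they were SMAD5 (−0.54 to 0.31) and SMAD7 (−0.67 to 0.60) in HEs and SMAD1 (−0.23 to 0.17), SMAD5 (−0.19 to 0.66) and ID1 (−0.75 to 0.020) in HPCs. For the difference between stages they were ACVRL1 (−0.35 to 0.039), TGFBR2 (−0.22 to 0.059), BMP4 (−0.77 to 0.49), SMAD6 (−0.65 to 0.53), SMAD7 (−1.67 to 0.41), ID2 (−0.043 to 0.35) and ID3 (−0.74 to 0.22). None of these passed the threshold in the full data.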

Other observations

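For each of the 10 genes, the 3 genes with the most similar course over the 10 libraries were found by Pearson's r of log2(TPM + 1), among genes whose mean TPM reached 5. The 10 libraries fall into 3 stages, so r describes mostly the order of the stages and has no p. ACVRL1 went with ITPKB (r = 0.995), MMRN2 and GNAI1, and TGFBR2 with ARMCX3 (r = 0.996), MMRN2 and PMP22. MMRN2, an endothelial matrix protein, was thus listed for both receptors. BMPR2 went with TFPI2 (r = 0.991), FLT1 (a VEGF receptor) and IDS, ID3 with COL13A1 (r = 0.992), CERK and WWTR1, and SMAD6 with SKAP2 (r = 0.997), ENC1 and ATF7. BMP4 went with STK25 (r = 0.982), CBLN1 and TNS3, and ID2 with the mitochondrial tRNA genes MT-TF (r = 0.993) and MT-TM and with CHMP3. The closest genes to SMAD7, SMAD1 and SMAD5 were less close: WDR25 (r = 0.969), ZDHHC18 (r = 0.934) and AC005702.4 (r = 0.917). Among the members themselves the closest pair was ACVRL1 and TGFBR2 (r = 0.990), and the pair furthest apart was ID2 and SMAD7 (r = −0.489).

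ID1 lies on chromosome 20 from 30193086 to 30194318 of GRCh37, between HM13 and BCL2L1, which were picked after their values were seen. HM13 was higher in GATA2-/- than in WT by 0.67 in HEs and 0.82 in HPCs on the log2 scale, and BCL2L1 by 0.53 and 0.59 (limma, unadjusted p = 0.0399, 0.0165, 0.0617 and 0.0429, none past the threshold after adjustment). ID1 differed in the same direction in HEs (0.89) and not in HPCs (−0.17).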
